A study of Bombyx mori with 64 samples.

Results

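The larval head of the silkworm, Bombyx mori, was profiled on 4 microarrays and set against the other tissues of larvae of the same age. The head arrays were chosen by their tissue label, and they were 4 of the 36 arrays of fifth-instar day 3 larvae (64 arrays in the whole series, the others from later stages, which were not used here). They held 2 RNA specimens, 1 from females and 1 from males, each hybridized to slides a and b, so the slides are technical repeats and a specimen counted once. All larvae came from the bivoltine strain DaZao and ate mulberry leaves; none was given an agent, and the number of animals behind a specimen was not given in the sources used here. The 32 other arrays held 16 specimens: body wall (BW), anterior silk gland (ASG), posterior silk gland (PSG), midgut (MG), fat body (FB), hemocyte (HC) and malpighian tubule (MT) from females and males, ovary (OV) from females and testis (TE) from males. The head (HD) is a mixed sample of nervous tissue, muscle, cuticle and mouthparts. In such bulk RNA, fewer cells of a type and less RNA per cell cannot be told apart.

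MicroRNAs are short RNAs that a ribonuclease cuts from hairpin precursors and that a protein complex then uses to recognise messenger RNAs, mostly through base pairing at the 5′ end of the microRNA, which lowers their translation or stability. Many are made in particular tissues. miR-1 is known from vertebrates and Drosophila as a microRNA of muscle, and the head of a leaf-eating caterpillar contains the large muscles that move its mandibles.

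Each array carried 106 microRNA probes, named SW-1 to SW-106, with 3 spots a probe. The signal is the brightness of the Cy3 dye in arbitrary units after the authors multiplied each array by 1 factor, and signals under 100 were raised to 100 before log2 values were taken. The files used here do not pair the probes with microRNA names or sequences, so probes are given by number and no sequence is shown. The head label was not checked against a list of tissue markers. Sex ratios printed in the study might tie some further probes to names, which was not attempted here. SW-7 is the exception. The highest of all signals on the 36 arrays was 79376, given by SW-7 on the second slide of the female head. The text of the study names miR-1 in the female head as its highest larval signal, so SW-7 is taken as a miR-1 probe. Some microRNAs have more than 1 probe on this array, so probes are not independent of each other. The study names miR-1 among those with alternative probes. Its printed sex ratios for miR-1 match SW-68 in body wall and fat body, and SW-7 in malpighian tubule. SW-68 may thus be a second miR-1 probe. Brightness also depends on the probe, so no probe's level is set against another's.

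The head arrays stood apart in their scaling, and this touches most of the results that follow. The factor that brought each array to its control RNAs (U6, a small nuclear RNA, and 5S ribosomal RNA) was 2.20 to 3.17 on the 4 head arrays and 0.635 to 1.93 on the 32 others. Before scaling, the U6 signal was 7067 to 11164 on the head arrays and 15597 to 44904 on the others. Neither range overlapped. With each specimen as 1 value, both differences had an exact two-sided permutation p of 0.0131, over 153 arrangements of 2 head and 16 other specimens; neither p was adjusted for the pair of tests. The 5S signal before scaling was 64994 to 65147 on the head arrays and 62156 to 65114 on the others, close to the top of the scanner's range. The highest single spot of a microRNA probe on a head array had a net signal of 34616, and none of the head's microRNA spots reached 64000. The names of the deposited arrays carry a code, shared by all head arrays and by no array of another tissue, and the same was true of every tissue except ovary and testis, which shared 1. What the code stands for was not stated; if it marks a hybridization session, session and tissue cannot be told apart. The main results are therefore also given on net signals, that is, background-subtracted signals before the scaling. Whether the scaling sets the level of the head correctly was not tested.

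**Figure D1:**
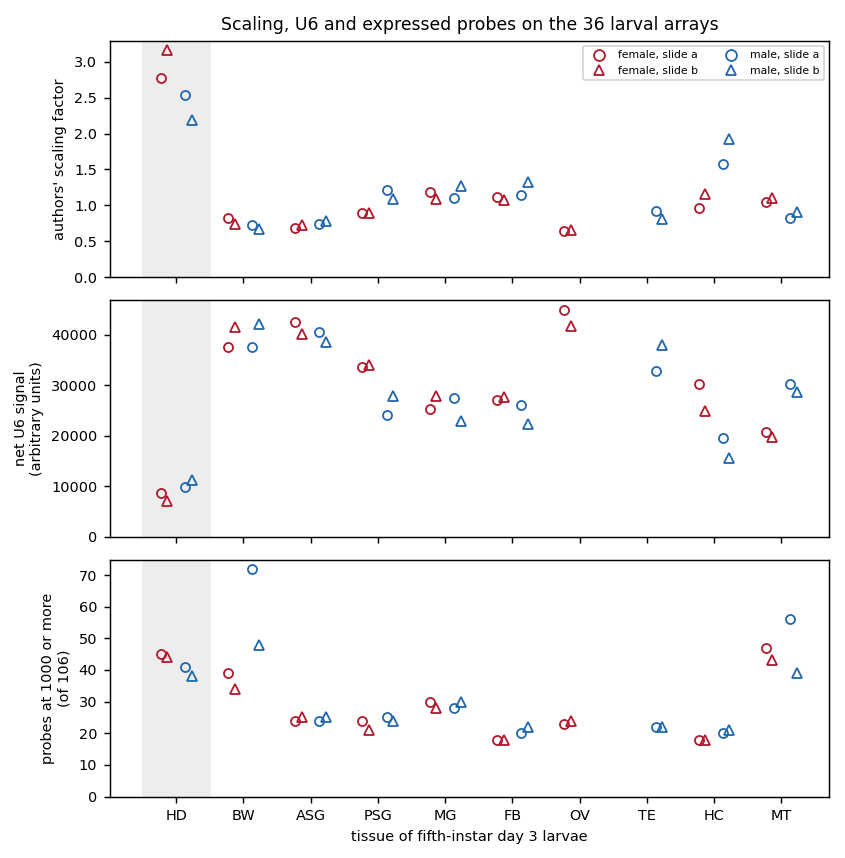
The authors' scaling factor (top), the net U6 signal before scaling (middle) and how many probes reached the expression threshold of 1000 (bottom) on each of the 36 larval arrays, by tissue, with 1 point per array (red female, blue male, circles slide a, triangles slide b). The 4 head arrays (shaded) had factors of 2.20 to 3.17 and U6 signals of 7067 to 11164, outside the range of the other 32 arrays.

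The study took a signal of 1000 as the threshold of expression, and the head passed it for 45 of the 106 probes in at least 1 sex. For 38 of them both sexes passed, and 38 passed on all 4 arrays. Taking the brighter sex, 14 of the 45 had a signal of 10000 or more, 9 lay between 5000 and 10000 and 22 were below 5000. A further 27 probes reached 1000 in another tissue but not in the head, 23 of them in body wall or malpighian tubule alone, and 34 reached it in no tissue. A control called blank, printed in 3 spots, read 173 to 2712 after scaling on the body wall and malpighian tubule arrays, with 1000 or more on 7 of 8, against 24.3 to 254 on the head arrays and 4.67 to 136 on the rest, whereas a second control (Blank) read 5.83 to 27.8, 24.5 to 150.5 and 4.17 to 54.5. What sets these controls apart was not given in the sources used here. In their brightest specimen the 23 probes had 1004 to 2962, with a median of 1190, and 22 of them lay under the highest blank signal. The 4 probes that passed outside those 2 tissues but not in the head were SW-11, SW-56, SW-70 and SW-81.

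Counted by specimen, 44 probes passed in the female head and 39 in the male head, against a lowest of 17, a median of 24 and a highest of 65 in the 16 other specimens. The ranges overlapped, and the difference of 12.4 probes did not pass an exact permutation test (two-sided p = 0.288). The overlap came from body wall and malpighian tubule, and the other 12 specimens had 17 to 29 probes, which is given with no test because those were the tissues that overlapped. On net signals the head specimens had 29 and 30 probes, inside the range of 13 to 75 of the others (exact permutation p = 0.824), so the place of the head in that order moved with the scaling. The median log2 signal over the probes was 9.08 and 8.83 in the 2 head specimens and 6.64 to 10.19 in the others (exact permutation p = 0.235).

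The probes expressed in the head ranged from narrow to general. Of the 45, 12 reached 1000 in all 10 tissues and 4 more, SW-21, SW-27, SW-35 and SW-55, in the head and 8 other tissues. At the narrow end, 2 reached it in the head alone, 3 in the head and 1 other tissue, and 6 in the head and 2 others. Another 7 were shared with body wall or malpighian tubule and nothing else. This count overlaps with the previous ones.

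**Figure D2:**
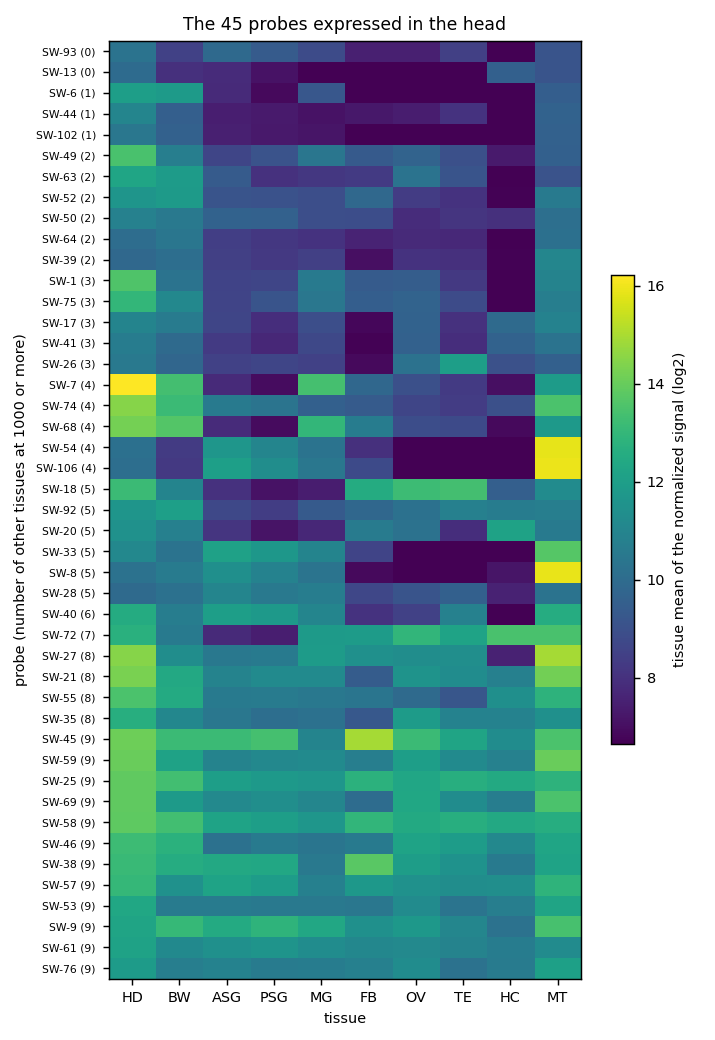
Tissue means of the normalized signal (log2, colour) for the 45 probes at 1000 or more in the head, in 10 tissues. Probes are ordered from those reaching 1000 in the head alone (top) to the 12 that reached it in all 10 tissues (bottom), with the number of other tissues in parentheses.

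Both probes of the head alone lay close to the threshold. SW-93 had signals of 1462 and 1371 in the female head and 1122 and 1118 in the male head (slides a and b), and the highest other array, from female anterior silk gland, had 1010. Its head arrays lay above all others by a narrow margin, and its head-minus-others difference was 1.87 log2 but 0.32 on net signals, given with no test because the probe met the filter of the fit through its 2 head specimens alone. SW-13 had 1076 and 804 in the female head and 1417 and 873 in the male head, with hemocyte next at up to 1018 on 1 array. The head arrays of SW-13 straddled the threshold and overlapped the hemocyte arrays, and with 1 specimen at 1000, the male head, it did not enter the fit. On net signals no probe was expressed in the head alone.

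For the comparison of levels, the 55 probes that reached 1000 in 2 or more of the 18 specimens entered a limma fit, as the head against the equally weighted mean of the other 9 tissues. The head was higher for 44 of the 55 probes (80%) and lower for 2 (3.64%), at an adjusted p under 0.05, and 9 did not pass. The head had the highest mean of the 10 tissues for 24 of the 55. With the head at 2 specimens, these p-values rest on a spread pooled over tissues and measure the spread between specimens only. The whole distribution was shifted, with a median difference over the 55 probes of 1.57 log2, so the count says little about single probes. SW-44, SW-93 and SW-102 entered the fit only because both head specimens were at 1000, so their calls support nothing; of the other 52 probes 41 were higher.

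On net signals the same test called 17 probes higher (30.9%) and 13 lower (23.6%), around a median of 0.03 log2. Centring each array on its median gave 24 higher and 5 lower (median 0.42), quantile normalization 15 and 12 (median −0.09), and scaling to U6 alone 46 and 2 (median 1.83). SW-22, SW-31 and SW-56 were called higher under the authors' scaling and lower on net signals. Under quantile normalization 7 probes turned in this way: SW-22, SW-25, SW-38, SW-57, SW-58, SW-61 and SW-76. Median centring and scaling to U6 alone turned 0. In all, 14 of the 55 probes were called higher under all 5 scalings: SW-1, SW-6, SW-7, SW-18, SW-21, SW-27, SW-44, SW-49, SW-59, SW-63, SW-68, SW-74, SW-75 and SW-102. Among these, SW-44 and SW-102 met the filter only through the head, so their calls support nothing. SW-32 and SW-81 were lower under all 5.

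**Figure D3:**
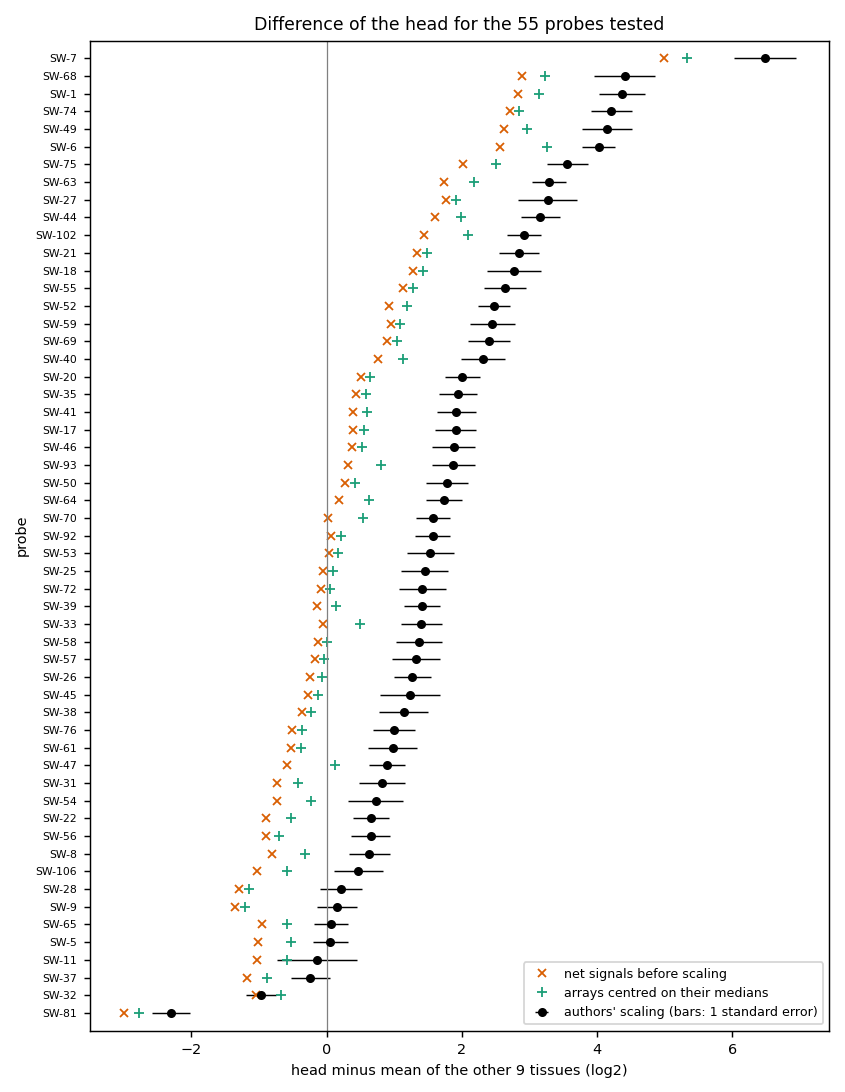
Head minus the mean of the other 9 tissues (log2) for each of the 55 probes tested, under the authors' scaling (black points, bars 1 standard error), on net signals (orange) and with arrays centred on their medians (green). The black points centre on 1.57 log2 and the orange crosses on 0.03, while SW-7 stays at the top and SW-81 at the bottom under each.

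SW-7, taken as a miR-1 probe, had the largest difference. Its signals in the head were 78511 and 79376 in females and 71316 and 75261 in males, and the highest of the 32 other arrays had 25357. By this probe the head was thus far above every other array, while the sexes and slides of the head lay close together. The next specimens were male body wall at 24640, female midgut at 12686, male midgut at 9110, the malpighian tubule of females at 5080 and of males at 2890, and female body wall at 4445. Fat body had 649 in females and 1340 in males, and ovary, testis and both silk gland segments had 82 to 508. Hemocytes had 7.3 in females, the lowest of all specimens, and 175 in males. The difference was 6.49 ± 0.45 log2 (SE; adjusted p = 7.75e-10), a fold of 89.7 on the scale with the floor of 100, and it was 4.99 on net signals. SW-68, possibly a second miR-1 probe, did not share this margin. It had 30712 in male body wall, above its 18688 in the female head and 19837 in the male head.

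Between the head and single tissues, the difference of SW-7 ran from 2.83 ± 0.60 log2 against midgut (SE; limma adjusted p = 3.24e-04) and 2.87 ± 0.60 against body wall (adjusted p = 7.89e-04) to 7.94 ± 0.74 against testis (adjusted p = 5.28e-08), among the tissues with all arrays above the floor. In both silk gland segments and in hemocyte at least 1 array was at the floor, so their differences of 8.41 to 9.26 log2 are lower bounds. Midgut and body wall had nearly the same mean. On net signals the margin was lost in 1 place: male body wall reached 37809 on slide b, above the head's range of 25072 to 34287.

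SW-68, SW-1, SW-75, SW-49 and SW-6 had the profiles most like that of SW-7 over the 18 specimens, with Pearson correlations of log2 signals of 0.976, 0.914, 0.910, 0.897 and 0.885. These are descriptions, since specimens of a tissue share their array code. SW-68 may also measure the same microRNA as SW-7.

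SW-1 was the probe whose head arrays stood farthest above the rest. It had 11453 and 11605 in the female head and 13411 and 12269 in the male head, while no other array passed 2260. The next tissue by its mean was malpighian tubule, with 2072 in females and 1787 in males. The difference was 4.38 ± 0.34 log2 (SE; adjusted p = 1.82e-09) and 2.83 on net signals, and SW-1 was the one probe that remained above all other arrays on net signals, at 3665 to 5589 against 3315 or less.

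SW-68, possibly a second miR-1 probe, was high in the head but not in the head alone. The head arrays had 17848 and 19527 in females and 20730 and 18944 in males, below the 30712 of male body wall and above the 5425 of female body wall. Midgut followed with 8673 and 7699. The difference from the mean of the other tissues was 4.41 ± 0.45 log2 (SE; adjusted p = 6.04e-08), whereas the contrasts with body wall and with midgut did not pass.

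SW-49 and SW-75 resembled each other in their tissues. SW-49 had 11462, 12548, 10205 and 11020 on the head arrays (female a, female b, male a, male b) against at most 3779 elsewhere, in male body wall. SW-75 had 8584, 8590, 8544 and 6675 against at most 3664, also in male body wall. Neither overlapped with any other array, and their differences were 4.15 ± 0.37 (adjusted p = 1.15e-08) and 3.56 ± 0.30 log2 (adjusted p = 5.46e-09), which were 2.62 and 2.01 on net signals.

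SW-74 had malpighian tubule and body wall as its next tissues. Its head arrays had 22448, 24267, 24707 and 20648, the malpighian tubule specimens 9624 and 13851 and the body wall specimens 6491 and 13155 (female, male), while midgut stayed at 741 and 795. The difference was 4.21 ± 0.30 log2 (SE; adjusted p = 7.75e-10) and 2.71 on net signals.

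**Figure D4:**
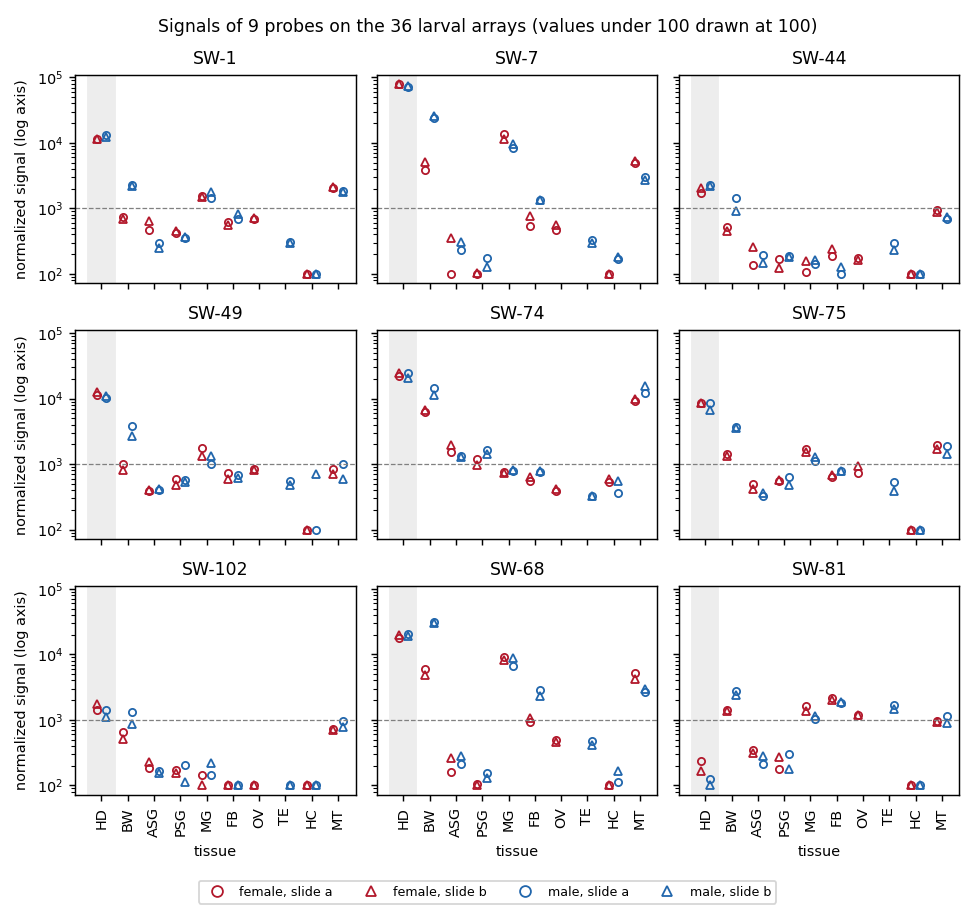
Normalized signals (log axis, values under 100 drawn at 100) on the 36 arrays by tissue for the 7 probes higher in the head than in each of the other 9 tissues, for SW-68 and for SW-81, with red for females, blue for males, circles for slide a and triangles for slide b; the dashed line marks 1000. SW-7 and SW-1 lie above every other array in the head (shaded), SW-68 is overlapped by male body wall, and SW-81 is near the floor.

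The narrow probes SW-6, SW-44 and SW-102 reached 1000 in the head and body wall alone. The brighter blank control read up to 2712 on the body wall arrays, so SW-44 and SW-102 were not shown to be above background there. SW-6 had 3646 and 4809 in the female head, 4143 and 3999 in the male head, and 3742 and 3752 in the 2 body wall specimens, with at most 747 in any other specimen. It separated head and body wall from the rest, and the head-body wall gap of 0.14 log2 did not pass. SW-44 had 1729, 2028, 2237 and 2202 on the head arrays and 1173 in male body wall, its highest other specimen. SW-102 had 1433, 1767, 1398 and 1088 in the head and 1080 in male body wall, so its lowest head array fell under the highest body wall array of 1304. Their differences from the mean of the other tissues were 4.03 ± 0.24, 3.16 ± 0.29 and 2.92 ± 0.25 log2, the last 2 as a description because SW-44 and SW-102 met the filter through the head, and 7, 2 and 6 of the 16 other specimens were at the floor for SW-6, SW-44 and SW-102, so these differences are understated by the floor.

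Several bright probes were shared with malpighian tubule or with the gonads. SW-27 had 27156, 25546, 21860 and 18317 on the head arrays, but the malpighian tubule specimens, at 52838 in females and 18834 in males, lay on both sides of them, and the contrast with malpighian tubule did not pass. SW-21 had 16542 to 22514 in the head and up to 21762 in malpighian tubule. SW-18 had 8672 to 9692 in the head and 10469 in testis. SW-63, with 3954 to 5559, overlapped with male body wall at 5083. Against the mean of the other tissues these 4 probes differed by 3.27 ± 0.44, 2.84 ± 0.30, 2.78 ± 0.40 and 3.29 ± 0.25 log2, and by 1.77, 1.34, 1.27 and 1.74 on net signals.

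SW-55 and SW-52 close the 15 largest differences, at 2.64 ± 0.31 and 2.47 ± 0.24 log2. SW-55 had 10681 to 12818 in the head against at most 10064 in male body wall. SW-52 had 2854 to 3503 and was passed by male body wall at 4194. Both were also higher on net signals, by 1.14 and 0.93, and neither passed under quantile normalization.

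Other probes bright in the head were bright everywhere. SW-25 had 14396 to 16506 in the head and 3115 to 17815 in the 16 other specimens, SW-58 had 11524 to 16455 and 3119 to 17501, and SW-45 had 13355 to 21322 and 2028 to 33558, the highest in fat body. Their differences of 1.45 ± 0.35, 1.37 ± 0.34 and 1.23 ± 0.44 log2 were below the median of all 55 probes and were −0.05, −0.13 and −0.27 on net signals, so their direction depended on the scaling, and SW-45 did not pass without the female head (0.99, adjusted p = 0.172). SW-59 and SW-69 differed by 2.45 ± 0.33 and 2.40 ± 0.31 log2, and by 0.95 and 0.90 on net signals (adjusted p = 0.0385 and 0.0447).

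Only 2 probes were lower in the head. SW-81 had 232 and 162 in the female head and 123 and 94 in the male head, against a lowest of 10, a median of 1053 and a highest of 2563 in the 16 other specimens. Fat body (2070 and 1868), body wall (1388 and 2563), midgut (1500 and 1085), testis (1564) and ovary (1194) were all far above the head, and hemocytes, at 10 and 18, were below it. The brighter blank control read up to 2712 in body wall, so the body wall level of SW-81 was not shown to be above background. The difference was −2.30 ± 0.28 log2 (SE; adjusted p = 5.78e-07) and −3.0 on net signals, and SW-81 was lower than in 7 of the 9 tissues, with posterior silk gland and hemocyte not passing. SW-32 had 35, 100, 55 and 57 on the head arrays, and its brightest tissues were body wall (1191 and 1610) and malpighian tubule (1278 and 1070), where the brighter blank control read up to 2712, so its level there was not shown to be above background. Its difference of −0.97 ± 0.23 log2 (adjusted p = 7.52e-04) was −0.20 without those 2 tissues (adjusted p = 0.35). For both probes the head lay near the floor of 100, so the size of the difference is set in part by that floor.

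The 9 probes that did not pass were SW-5, SW-8, SW-9, SW-11, SW-28, SW-37, SW-54, SW-65 and SW-106. Their 95% intervals reached from −1.39 to 1.11 log2 for SW-11, the widest, and from −0.47 to 0.60 for SW-65, the narrowest, so differences of that size were not shown to be absent.

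Tissue by tissue, the head had the fewest higher calls and smallest median differences against malpighian tubule and body wall under the authors' scaling. Malpighian tubule also had the most lower calls. Against malpighian tubule 18 of the 55 probes were higher in the head (32.7%) and 14 lower (25.5%), with a median difference of 0.15 log2. Against body wall 22 were higher (40%) and 8 lower (14.5%), with a median of 0.66. On net signals these contrasts turned, to 5 higher and 29 lower against malpighian tubule and to 1 higher and 31 lower against body wall. Median centring moved them the other way, to 32 and 11 and to 37 and 4. Leaving out female body wall gave 14 higher against body wall and leaving out male body wall 34, and the higher calls against malpighian tubule were 9 without the female head and 9 without male malpighian tubule. The part that the bright blank spots of these 2 tissues have in the contrasts was not tested.

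Under the authors' scaling 6 of the 8 probes lower against body wall were also lower against malpighian tubule: SW-5, SW-32, SW-37, SW-47, SW-65 and SW-81. SW-31 and SW-56 were lower against body wall alone of the pair, and 8 probes against malpighian tubule alone. Among the last were SW-8, SW-54 and SW-106, which were near the top of the scanner's range in malpighian tubule, with net signals of 64000 or more on 1, 1 and all 4 of its 4 arrays. The head was thus at least 56.9-fold lower for SW-106, with no order among the 3. SW-106 and the other probes named in these sentences outside the rule for names were chosen after their values were seen.

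Of the remaining tissues, the head was higher for 49 probes against hemocyte (89.1%), with 0 lower at an adjusted p under 0.05 in limma and 0 at an unadjusted one, for 45 against fat body (81.8%), 41 against testis (74.5%), 38 against midgut and 38 against posterior silk gland (69.1% each), 37 against ovary (67.3%) and 35 against anterior silk gland (63.6%). The lower calls were 1 for fat body and 1 for midgut (1.82% each), which was SW-81 in both, 2 each for ovary, testis and posterior silk gland (3.64%), and 8 for anterior silk gland (14.5%). These small counts moved with single specimens: those for anterior silk gland were 1 without the male head, 1 without the female gland and 5 without the male gland, those for posterior silk gland 0 without the male head, 0 without the male gland and 1 without the female head, and those for hemocyte 2 without either body wall specimen. On net signals the higher and lower calls were 32 and 2 for hemocyte, 27 and 3 for fat body, 20 and 5 for testis, 26 and 9 for midgut, 24 and 8 for posterior silk gland, 15 and 6 for ovary, and 19 and 17 for anterior silk gland. With arrays centred on their medians they were 19 and 30, 23 and 8, 22 and 5, 30 and 8, 25 and 10, 17 and 11, and 28 and 10 in the same order. The direction of the majority thus turned with median centring for hemocyte, whose median signals were at the floor. Quantile normalization gave 20 and 18 for hemocyte, 19 and 15 for fat body, 18 and 11 for testis, 11 and 12 for midgut, 20 and 18 for posterior silk gland, 15 and 10 for ovary, 22 and 18 for anterior silk gland, 17 and 13 for body wall, and 13 and 11 for malpighian tubule. Scaling to U6 alone gave 49 and 0 for hemocyte, 48 and 1 for fat body, 47 and 2 for testis, 42 and 1 for midgut, 41 and 1 for posterior silk gland, 38 and 2 for ovary, 36 and 2 for anterior silk gland, 27 and 7 for body wall, and 13 and 14 for malpighian tubule.

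**Figure D5:**
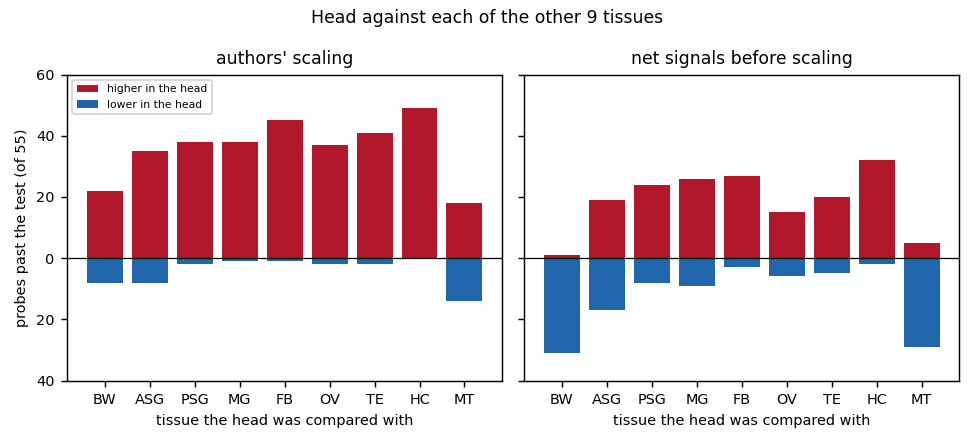
Number of the 55 tested probes that were higher (red, upward) or lower (blue, downward) in the head than in each of the other 9 tissues at a limma adjusted p under 0.05, under the authors' scaling (left) and on net signals (right). The calls against body wall went from 22 higher and 8 lower to 1 higher and 31 lower, and those against hemocyte from 49 and 0 to 32 and 2.

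Across the 9 contrasts, 7 of the 55 probes (12.7%) were higher in the head every time: SW-1, SW-7, SW-44, SW-49, SW-74, SW-75 and SW-102. Without SW-44 and SW-102, which met the filter only through the head, 5 are left. The count of 7 was 4 without female body wall, 4 without male malpighian tubule and 14 without male body wall. A further 20 were higher in 7 or 8 contrasts, and SW-11, SW-32 and SW-81 in none. On net signals SW-1 was the one probe higher in all 9. By arrays rather than by a test, 10 of all 106 probes (9.43%) had all 4 head arrays above all 32 others, and 0 had all 4 below. The gap between the lowest head array and the highest other array was widest for SW-1 at 2.34 log2, followed by SW-7 at 1.49, SW-49 at 1.43, SW-75 at 0.87 and SW-35 at 0.53. SW-35 had 6653, 7347, 5965 and 5592 in the head and at most 3872 elsewhere, in ovary, and its difference of 1.94 ± 0.28 log2 was 0.44 on net signals (adjusted p = 0.305). The count of 10 became 1, SW-1, on net signals. Under the authors' scaling it was 35 of the 106 without body wall and malpighian tubule. Leaving out tissues that overlapped the head could only keep or raise it.

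Over the 106 probes the Pearson correlation of the head's mean log2 signals with those of another tissue was 0.662 to 0.834, and over the 55 tested probes 0.402 to 0.709. Midgut was highest in both, at 0.834 and 0.709, but the tissues behind it changed order: body wall had 0.789 and 0.699, ovary 0.800 and 0.647, fat body 0.776 and 0.660, and malpighian tubule 0.694 and 0.434. These correlations are across probes, whose own brightness is shared by all tissues, and describe the profiles only. Of the 106 probes, 45 were expressed in the head and 65 in body wall, the most of any tissue. Body wall shared the most with the head, 41, which is 91.1% of the head's and 63.1% of its own. Malpighian tubule shared 37 (82.2% and 74%). The brighter blank control read 1000 or more on 7 of the 8 arrays of these 2 tissues. All 20 probes of the hemocyte were among the head's, 44.4% of it. For the silk gland segments, midgut, fat body, ovary and testis, 90.9% to 96.6% of their own probes were.

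Females and males of the head were 1 specimen each, so the sexes are compared without a replicate and no test was made. Over 43 probes at 1000 or more in the brighter sex on both slides, the median ratio of female to male was 1.10 for slide a and 1.23 for slide b. Of these, 31 probes were higher in the female on both slides against 4 in the male, but the direction turned with the scaling. After division by the median ratio it was 13 against 14. On net signals, where only 30 probes met the same threshold, it was 2 against 19. At a ratio of 1.5 or more on both slides, 2 probes were female-biased and 0 male-biased. SW-8 had 1431 and 1951 in the female head and 857 and 912 in the male head, ratios of 1.67 and 2.14. SW-33 had 2971 and 2852 against 1857 and 1484, ratios of 1.60 and 1.92. After that division SW-8 alone was left. On net signals there was no female-biased probe and 1 male-biased one, SW-92, with female over male at 0.601 and 0.647.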

How the data were processed

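Small RNA of each tissue specimen was labelled with Cy3 and hybridized to arrays with 106 microRNA probes printed in 3 spots each. The authors deposited signal intensity values: net spot signals with the local background subtracted, spots at or below 0 set to 10, outlying spots replaced, and each larval array multiplied by 1 factor from U6 and 5S rRNA, whose formula is not given in the sources used here. The deposited table of the whole series matched the array tables (largest difference 0), and its 28 columns of the metamorphosis arrays were not used.

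Intensities were raised to a floor of 100, taken to log2 and averaged over slides a and b, so that a specimen was 1 replicate (18 specimens). The 55 probes that reached 1000 in 2 or more specimens entered a fit with limma 3.58.1 in R 4.3.3 (tissue means, eBayes with a variance trend), the head against the equally weighted mean of the other 9 tissues and against each tissue, with Benjamini-Hochberg adjustment over the 55 probes of a contrast and a threshold of 0.05. Ovary and testis, with 1 specimen each, were assumed to vary like the other tissues. Values per specimen were compared with exact permutation tests. The net signals, median centring, quantile normalization, U6 scaling, other floors and filters, and leaving out each specimen were alternatives. The fit was also run on simulated data with independent noise. Those data had no shift of whole arrays and no floor, so the run does not bear on the scaling. The number of arrays limits the precision, and nothing says that the specimens came from more than 1 pool of animals per sex and tissue, so the spread may be partly technical.

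Named probes were those with the 15 largest and up to 10 lowest differences past the threshold, those expressed in the head and at most 1 other tissue, the 10 with the highest head signal, the 5 with the widest gap to the other arrays, those differing 1.5-fold between the sexes on both slides, and SW-7. The lists of marker microRNAs drawn up for nervous tissue, muscle and other types were not used, since most probes were not named here. The members, lists and tests were chosen with earlier results of these data known.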

Additional observations from a re-analysis of the deposited data

Results flagged for a closer look

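On 3 of the 27 named probes 1 of the 4 head arrays lay far from the other 3, and in each it was the male head on slide b, which was the lowest: SW-58 at 11524 against 15590 to 16455, SW-69 at 12895 against 15808 to 15912, and SW-75 at 6675 against 8544 to 8590. Chance gives such a mark in about 1 of 20 groups of 4. For the 2 probes that were female-biased in the head, the sexes differed the opposite way in body wall, and for SW-8 in midgut too. Male body wall had 65 probes at 1000 or more and female body wall 34, so its male excess was not particular to these probes. The female-to-male ratio of SW-8 was 1.67 and 2.14 in the head (slides a and b), 0.591 and 0.797 in body wall and 0.922 and 0.92 in midgut. That of SW-33 was 1.60 and 1.92 in the head and 0.482 and 0.739 in body wall. These differences between tissues were not tested, since each sex of a tissue was 1 specimen.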

How the results depend on the processing

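The scaling of the arrays moved the counts most. From 44 higher and 2 lower probes against the mean of the other tissues, median centring gave 24 and 5, quantile normalization 15 and 12, net signals 17 and 13, and a fit of the head against the other 16 specimens as 1 group 17 and 0; all 106 probes without a filter gave 5 lower, and leaving out body wall and malpighian tubule 1 lower. Summed over the 9 tissue contrasts there were 323 higher and 38 lower calls, with 155 and 126 under quantile normalization, 169 and 110 on net signals, 97 lower under median centring, 106 lower without a filter and 25 lower with a floor of 1000. The 7 probes higher in all 9 contrasts became 1 under quantile normalization and 1 on net signals. Fits that lack a tissue gave no such total.

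Leaving out each specimen in turn gave 36 to 46 higher and 2 to 3 lower probes, 267 to 365 higher and 24 to 44 lower calls over the tissue contrasts, and 4 to 14 probes higher in all 9. The 24 came without the male head. With sex as a replicate block the counts were 44 higher and 2 lower, and 7 in all 9; the sexes of a tissue share no number in the labels and no common animal, and the block changed none of these 3 counts.

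Without body wall and malpighian tubule the head had 18.6 more probes at 1000 than the other specimens and a median log2 signal 1.57 higher (no test is given, since these tissues overlapped the head), and 35 probes had all head arrays above the others. On net signals, an alternative chosen after seeing the data, that count was 1 and no probe (0) was expressed in the head alone. Median centring put the head arrays of 2 probes below all others. At a threshold of 2000, 4 rather than 12 probes were expressed in all tissues. Female-biased probes numbered 1 after division by the median ratio and 0 on net signals, where 1 was male-biased.

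Of 26 named probes tested, 11 kept their call under all 33 alternatives. Differences turned sign for SW-8 (−0.67 with a floor of 1000, −0.81 on net signals), SW-25 (−0.64 under quantile normalization, −0.052 on net signals), SW-33 (−0.31 and −0.056), SW-58 (−0.81 and −0.13) and SW-45 (−0.67 and −0.27, and −0.13 under median centring). The causes were not tested. Dim signals near the floor of 100 and the 5S signal at the top of the scanner's range limit what the arrays can show.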
